A study of Mus musculus with 16 samples.

Results

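Single-cell transcriptomes of kidneys from diabetic mice were compared between 12 and 6 weeks of age, that is between the time the study named early diabetic nephropathy (DN) and the time it named onset. The members were the 8 libraries that the titles call diabetic nephropathy, 4 at each age and 2 of each sex at each age, out of 16 libraries in the series. They held 39012 of the 86200 cells kept for analysis, 19716 at 6 weeks and 19296 at 12 weeks. Each library came from both kidneys of 1 mouse with the papilla removed, after depletion of proximal tubule on Percoll, digestion with a cold-active protease and removal of dead cells, and was made with a droplet kit that counts molecules by their 3' ends. The DN mice were BTBR mice homozygous for the ob allele of Lep, the leptin gene, and carried a Cre transgene expressed in podocytes together with a reporter at the Gt(ROSA)26Sor locus that switches from tdTomato to EGFP in those cells. The control mice were BTBR +/+ at Lep and carried the same transgenes, and they are used here only to show how the same classes changed with age in mice without diabetes. The ob allele is a point change, so transcript counts could not check the genotype labels.

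Mice without leptin signalling eat without restraint and become obese, and on the BTBR background they also become hyperglycaemic and lose albumin into the urine. The glomerulus filters blood through fenestrated endothelium, a basement membrane and podocytes, and mesangial cells hold its capillaries together and lay down matrix. In diabetic nephropathy the mesangium expands, the basement membrane thickens and podocytes are lost, while the tubule reabsorbs a larger load of glucose. Between these 2 ages a mouse also passes through puberty into adulthood, so in the DN mice alone the age of the kidney and the time with diabetes cannot be told apart.

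The 8 DN libraries held 12416031 to 115592112 unique molecular identifiers (UMIs, counted molecules). The lists of cell barcodes fell into 2 sets that shared almost none of their barcodes, 0 to 3 per pair of libraries against 7 to 32 and 23 to 55 within the sets. The study names more than 1 kit version, but the labels give no version per library, so the 2 barcode sets were read from the files. What else differed between them is not known here. The smaller barcode set held the 4 libraries of the series with the fewest UMIs, replicate 1 of each female group, with 10510855 to 21728792 UMIs. In DN 1 such library stood at each age. By median UMIs per barcode the lowest library was in the larger set, control male 6 weeks replicate 2. It had 698, against 2061.5 to 3705.5 in the smaller set, and 36.0% of its kept cells were unnamed. It entered the fits as a control library. The labels name the cells as glomerular, but all nephron segments were present. Of the 39012 DN cells, 5488 fell in clusters given no name, and the others were assigned to 16 classes by marker genes. Class names below mean cells that resemble the class by its markers, all of which were detected in a larger share of cells inside than outside their class except 1 of 6 in the class of peritubular and venous endothelial cells. Markers of the descending loop of Henle (dLOH) were the sparsest, found in 5.88 to 74.3% of the cells of that class. Levels are given as CPM, the UMIs of a gene scaled to 1000000 UMIs of the class in that library, always in the order female replicates 1 and 2, then male replicates 1 and 2. Because RNA was summed over cells of a class, a lower level may mean fewer cells of a subtype or less RNA per cell, and these cannot be told apart.

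Proximal tubule cells (PT), which reabsorb most of the filtered glucose, salt and protein, had a higher mean share of the cells in the 12-week than in the 6-week DN libraries. Their share was 19.8, 16.7, 23.5 and 22.2% at 6 weeks and 24.7, 24.2, 25.7 and 35.7% at 12 weeks. PT was the 1 class of 16 whose shares at the 2 ages did not overlap, with means of 20.5% ± 2.97 (SD, n = 4) and 27.6% ± 5.46 (SD, n = 4). The difference had p = 0.0286 in a two-sided exact permutation test, the smallest p that 70 splits of 4 against 4 libraries can give, and the p adjusted over 16 classes was 0.457. An exact permutation test within pairs of equal sex and replicate number gave p = 0.125, the smallest that 16 splits allow. In control mice the PT share averaged 15.9% at 6 weeks and 15.2% at 12 weeks. The preparation depleted PT, so these shares also carry how complete the depletion was in each mouse, and the part of that in the difference was not tested. Unnamed clusters of 1240, 1036, 846 and 254 cells in the series also scored highest for PT markers. They count among all kept cells but not as PT, and their part was not tested.

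The share of smooth muscle and renin-producing cells was 2.51, 3.60, 1.91 and 3.40% at 6 weeks and 1.55, 1.3, 1.32 and 2.13% at 12 weeks. The lowest values at 6 weeks and the highest at 12 weeks overlapped, and the exact permutation test gave p = 0.0571. The share was lower at 12 weeks in each of the 4 pairs, with p = 0.125 in the exact permutation test within pairs. That test gave the same p for dLOH, with 5.22, 0.852, 3.08 and 1.69% at 6 weeks and 2.95, 0.638, 1.68 and 0.968% at 12 weeks. Mesangial cells made up 4.00, 1.38, 3.66 and 5.29% of cells at 6 weeks and 3.29, 7.19, 8.56 and 7.38% at 12 weeks (exact permutation p = 0.114). One 12-week mouse, female replicate 1, sat within the 6-week range and the other three above it. Glomerular endothelial cells (gEC) fell in 2 groups by replicate number at 12 weeks, with 1.18 and 1.25% in replicate 2 of the 2 sexes against 9.15 and 14.3% in replicate 1. Podocytes were few in every DN mouse, 0.669% ± 0.34 (SD, n = 4) at 6 weeks and 0.662% ± 0.323 (SD, n = 4) at 12 weeks, while the control means were 0.9 and 2.72%. No class passed the adjusted test, and with 4 mice an age no difference of a single class could, since a class whose ages separate fully reaches 0.457.

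**Figure D1:**
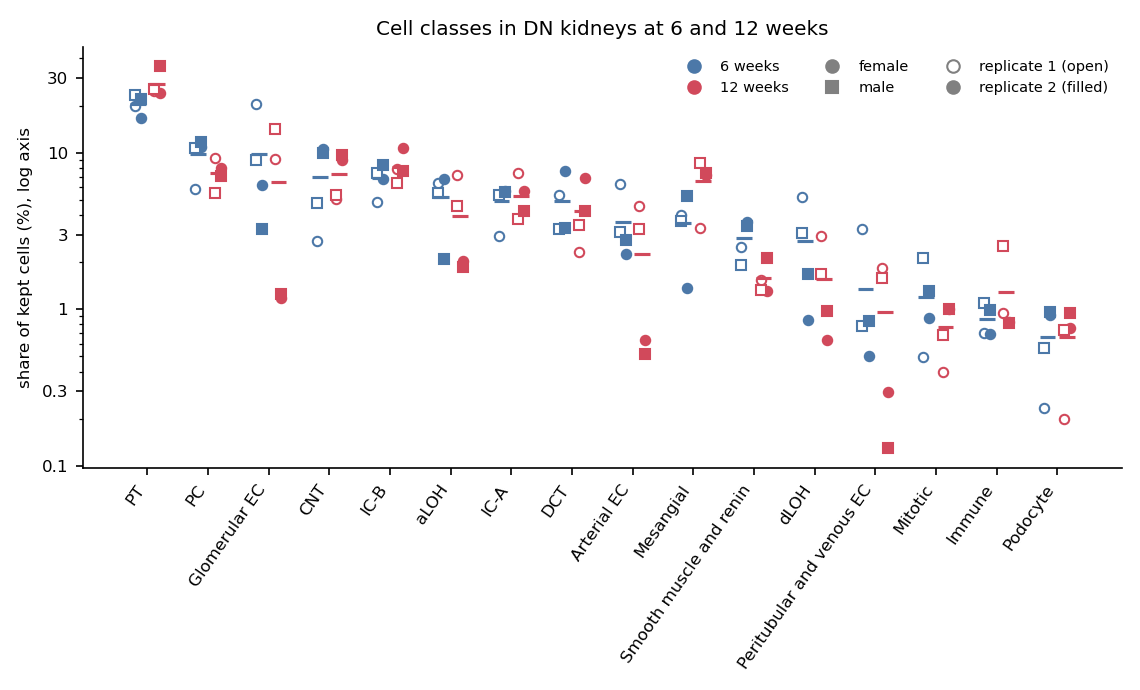
Share of kept cells (percent, log axis) in each of the 16 classes for every DN library, 4 mice at 6 weeks and 4 at 12 weeks, with bars at the mean of each age. Only for PT do the 12-week mice, at 24.2 to 35.7%, all sit above the 6-week mice, at 16.7 to 23.5%.

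For each class, UMIs were summed per library and tested with edgeR's quasi-likelihood test in a model with 1 mean per genotype, age and sex plus a term for the barcode set. Over all 16 classes, 7 of 157286 gene and class pairs were called between DN 12 and 6 weeks at an adjusted p under 0.05, or 0.00445%. Libraries with the same replicate number deviated together at both ages, which in females cannot be told apart from the barcode set. The barcode-set term therefore already stood for the replicate number of the females. A second fit added a term for replicate 1 of the males, shared over ages and genotypes, and is called the paired fit below. The fit without that male term is called unpaired or without pairing. In the paired fit 164 pairs of gene and class, 0.104%, were called. For the age change of control mice the same fits called 7 (0.00445%) and 171 (0.109%) gene and class pairs. The 164 DN calls and the 171 control calls shared 18 gene and class pairs that moved in the same direction. The paired calls were spread unevenly over classes: 44 in smooth muscle and renin cells (0.492% of the genes tested there), 25 in gEC (0.253%), 25 in the connecting tubule (CNT, 0.217%), 16 in PT (0.127%), 11 in mesangial cells (0.113%), 8 in the distal convoluted tubule (DCT, 0.0757%), 8 in type A intercalated cells of the collecting duct (IC-A, 0.0667%), 6 in the dLOH (0.0649%), 3 in the ascending loop of Henle (aLOH, 0.0298%), 3 in principal cells of the collecting duct (PC, 0.0249%), 1 in mitotic cells (0.00946%) and none in immune cells or type B intercalated cells (IC-B), where DESeq2 called 15 and 6 genes and edgeR's unadjusted p was under 0.05 for 534 and 574. The paired calls rest on few libraries: of the 90 named genes or list members called, 1 (Apob in PT) held in each of the 8 fits that left out 1 DN library, and leaving out female 6 weeks replicate 2 took the count of all paired calls from 164 to 25.

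Of the 7 calls without pairing, 5 lay in the CNT, the segment that trims calcium and sodium before the collecting duct, and made up 0.0434% of the 11521 genes tested there. Umod (GRCm38 chr7:119462711-119479282, minus strand), which encodes uromodulin, the most abundant protein of normal urine and a product of the loop of Henle and early distal tubule, was at 18.2, 28.9, 48.8 and 44.2 CPM in DN at 6 weeks. At 12 weeks it was at 63.1, 85.5, 74.2 and 69.4 CPM. Every 12-week mouse lay above every 6-week mouse, a pattern that 2.44% of the genes tested in CNT showed in one or the other direction. Over the 16 classes this share ran from 0.698% in PT to 4.27% in podocytes. Named genes were chosen in part for ages that did not overlap within either sex. The log2 change of Umod was 1.15 ± 0.15 (SE; edgeR adjusted p = 0.00534, and 0.000808 in the paired fit). Control mice had a higher mean of Umod at both ages, from 90.8 ± 40.0 to 167 ± 26.0 CPM (SD, n = 4 each), a log2 change of 1.14 ± 0.14. The call held in 14 of 16 fits that each left out 1 library and was lost without DN female 12 weeks replicate 2 and without DN female 6 weeks replicate 2 (highest adjusted p = 0.365).

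Umod also marks the aLOH, so the other markers of that segment were read in the same CNT sums. The 6 aLOH markers other than Umod together stood at 117 to 223 CPM in the 6-week and 86.9 to 128 CPM in the 12-week DN libraries. Their summed level overlapped between the ages but was lower at 12 weeks in each of the 4 pairs, and 3 of the 6 had a higher mean at 12 weeks. Their part in the change of Umod was not tested.

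Vdr (chr15:97854425-97910630, minus strand), the vitamin D receptor that drives calcium transport genes in this segment, was at 193, 148, 226 and 314 CPM at 6 weeks and 374, 363, 417 and 445 CPM at 12 weeks in DN. The 2 ages did not overlap, and Vdr rose by 1.00 ± 0.17 on the log2 scale (adjusted p = 0.0461 by edgeR, and 0.00625 in the paired fit). The control change was 0.94 ± 0.17. The tissue kallikrein gene Klk1b5 was at 10.9, 22.5, 31.6 and 43.0 CPM and then 31.1, 60.6, 56.4 and 53.6 CPM, with 1 female at 12 weeks inside the 6-week range. Its log2 change was 1.07 ± 0.18 (edgeR adjusted p = 0.0461). Without pairing, the call of Vdr held in 4 of 16 fits that each left out 1 library and was lost without each DN library except male 6 weeks replicate 2 and without each control library except female 12 weeks replicate 1, male 6 weeks replicate 1 and male 6 weeks replicate 2 (highest adjusted p = 0.656, without DN female 6 weeks replicate 2). The call of Klk1b5 held in 5 of 16 fits that each left out 1 library and was lost without each DN library except male 6 weeks replicate 2 and without each control library except female 6 weeks replicate 1, female 6 weeks replicate 2, male 6 weeks replicate 1 and male 6 weeks replicate 2 (highest adjusted p = 0.775, without DN female 6 weeks replicate 2).

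Some genes of ion transport were among the 25 of 11521 genes (0.217%) called in CNT in the paired fit. Wnk1, a kinase that sets the activity of sodium chloride cotransport, was at 748, 859, 1376 and 1281 CPM at 6 weeks and 1535, 1638, 1979 and 1860.1 CPM at 12 weeks, without overlap, and its log2 change was 0.85 ± 0.16 (adjusted p = 0.0224 by edgeR). Klhl3, the adaptor that targets WNK kinases for degradation, rose by 0.81 ± 0.16 (edgeR adjusted p = 0.0407). Atp2b4, a plasma membrane calcium pump, rose by 1.05 ± 0.19, and Atp4a, the catalytic subunit of the proton-potassium pump, rose by 1.05 ± 0.17, from 7.30, 15.7, 14.7 and 23.2 to 19.4, 31.4, 32.8 and 40.6 CPM. Atp2b4 and Klhl3 were higher at 12 weeks in each of the 4 pairs but overlapped between the ages, as did Atp4a. Of the 23 genes in the list of salt and water transport that were tested in CNT, Umod, Wnk1 and Klhl3 rose in the paired fit, none fell, and the median log2 change was -0.05 against 0.01 over all genes tested.

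Other genes that rose in CNT in the paired fit were Sfrp1, a secreted inhibitor of Wnt signalling, with a log2 change of 1.17 ± 0.20, Nipal2, a magnesium transporter family member, with 1.19 ± 0.21, and Ltc4s, the synthase of leukotriene C4, with 1.06 ± 0.19. Ltc4s was at 109, 71.8, 111 and 163 CPM at 6 weeks and 183, 192, 304 and 207 CPM at 12 weeks. It rose too in DCT (0.68 ± 0.13) and in PC (1.29 ± 0.19), which made it a gene called in 3 classes. Col26a1, a collagen, fell from 65.7, 63.8, 88.0 and 36.0 to 21.4, 34.4, 26.9 and 30.1 CPM, and Sema3c, a guidance ligand, fell from 21.9, 22.1, 14.7 and 22.7 to 13.6, 10.0, 8.64 and 10.7 CPM. Neither overlapped between the ages.

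All 25 genes called in CNT in the paired fit had a control change of the same sign, and 5 of 25, which were selected by their change in DN, differed from the control change at an unadjusted p under 0.05, as did 226 of all 11521 genes tested. The median share of mitochondrial UMIs in CNT cells varied between the DN libraries, 23.5, 5.79, 24.3 and 4.44% at 6 weeks and 25.1, 8.94, 24.3 and 24.6% at 12 weeks, and its part in these changes was not tested.

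**Figure D2:**
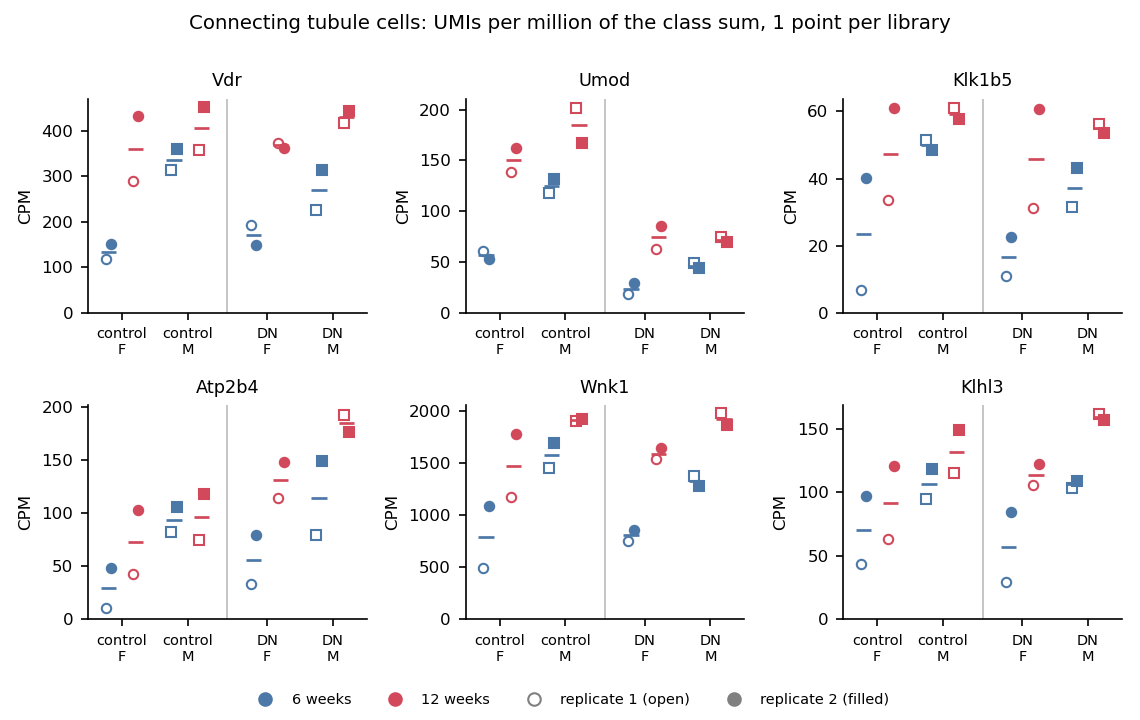
Levels of Vdr, Umod, Klk1b5, Atp2b4, Wnk1 and Klhl3 in CNT cells (CPM, linear axis from 0) in each control and DN library by sex, at 6 and 12 weeks, with bars at the mean of each sex and age. Umod lies at 18.2 to 48.8 CPM in the 6-week and 63.1 to 85.5 CPM in the 12-week DN mice, and every control mouse lies above every DN mouse of its age.

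In dLOH cells, the thin limb that takes up and gives off water in the medulla, 1 gene of 9238 (0.0108%) was called without pairing. This was Pdpn (chr4:143267431-143299564, minus strand), encoding podoplanin, a membrane mucin, which was at 55.6, 48.6, 43.3 and 25.2 CPM at 6 weeks and 105, 80.1, 105 and 102 CPM at 12 weeks in DN. No 6-week mouse reached the lowest 12-week mouse. It rose by 1.20 ± 0.19 on the log2 scale (adjusted p = 0.0482 by edgeR, and 0.00452 in the paired fit), while the control change was 0.24 ± 0.22. The call held in 5 of 16 fits that each left out 1 library and was lost without each DN library except male 6 weeks replicate 1 and without each control library except male 6 weeks replicate 1, male 6 weeks replicate 2, male 12 weeks replicate 1 and male 12 weeks replicate 2 (highest adjusted p = 0.39, without DN female 12 weeks replicate 1).

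In the paired fit Cnmd, which encodes chondromodulin, an inhibitor of vessel growth, rose in dLOH from 5.05, 0, 10.8 and 13.7 to 38.7, 57.8, 28.3 and 54.3 CPM, a log2 change of 2.87 ± 0.45 (edgeR adjusted p = 0.00452). Id1, a target of bone morphogenetic protein (BMP) signalling, fell from 157, 277, 772 and 369 to 79.1, 133, 188 and 195 CPM in DN, although the highest 12-week mouse exceeded the lowest 6-week mouse. Its log2 change was -1.28 ± 0.21 in DN and 0.64 ± 0.20 in control mice. Pck1, the rate-limiting enzyme of gluconeogenesis, fell from 21.9, 68.4, 134 and 288 to 7.03, 48.9, 25.2 and 23.9 CPM (-1.89 ± 0.29, edgeR adjusted p = 0.00452). Pck1 is made mostly by PT, and the 5 PT markers that could be tested in dLOH summed to 32.0 to 250 CPM at 6 weeks and 87.9 to 139 CPM at 12 weeks, with none of 5 higher on average at 12 weeks. Their part in the fall of Pck1 was not tested.

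In PT cells, 16 of 12601 genes (0.127%) were called in the paired fit. Without pairing DESeq2 called 19 and edgeR none, with an unadjusted p under 0.05 for 626 genes in edgeR. Apob, which encodes the apolipoprotein of low-density lipoprotein particles, was at 21, 65.3, 40.0 and 63.2 CPM at 6 weeks and 36.2, 182, 84.5 and 147 CPM at 12 weeks. The ages overlapped across mice, and replicate 2 was above replicate 1 in each sex and age, but within each of the 4 pairs of equal sex and number the 12-week mouse was higher. Its log2 change was 1.19 ± 0.11 in the paired fit (edgeR adjusted p = 0.000211, 0.0996 without pairing), and that call held in all 8 fits that each left out 1 DN library. Apob also rose in control mice by 0.88 ± 0.13, at levels of 8.04, 30.1, 3.33 and 5.37 CPM and then 11.6, 60.4, 5.84 and 10.3 CPM.

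C4b, the fourth component of complement, rose in PT from 0.637, 3.41, 4.44 and 3.39 to 6.04, 9.67, 19.2 and 11.6 CPM, with no overlap, a log2 change of 1.79 ± 0.20 (edgeR adjusted p = 0.00165 in the paired fit). The control change was 1.17 ± 0.23. This call held in 7 of 8 fits that each left out 1 DN library and was lost without DN female 6 weeks replicate 2 (adjusted p = 0.0751).

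In the paired fit 1 of 13 male-biased and 1 of 7 female-biased genes tested in PT were called, where 0.127% of all genes were. Cyp4a12a, a male-biased fatty acid hydroxylase, was at 2.55, 2.68, 2.93 and 17.0 CPM at 6 weeks and 8.80, 8.67, 30.2 and 84.0 CPM at 12 weeks in DN, and at 1.79, 1.42, 181 and 196 and then 1.08, 2.46, 179 and 215 CPM in control mice. It rose in DN by 2.17 ± 0.36 (edgeR adjusted p = 0.036). Each DN mouse at 12 weeks was above its 6-week counterpart, one 6-week DN male was at the level of the females, and the DN males at both ages were below every control male. The female-biased Cyp4a14 fell in DN from 329, 786, 191 and 169.9 to 247, 444, 67.1 and 108 CPM (-0.86 ± 0.15, edgeR adjusted p = 0.0386), with overlap. Control mice had 336, 527, 0.734 and 1.5 CPM and then 242, 411, 0.842 and 0.917 CPM, so the DN males were above the control males at both ages. Of the 13 male-biased genes tested in PT, 1 rose in the paired fit and the median log2 change was 0.29, and of the 7 female-biased genes 1 fell with a median of -0.28, against a median of 0.01 over all genes.

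Further genes that rose in PT in the paired fit were Clec2h, a member of the C-type lectin family (1.06 ± 0.18), Ascc1, a subunit of a transcription coactivator (0.74 ± 0.12), and Serpinb6a, a protease inhibitor (0.71 ± 0.12). Marc1, a mitochondrial amidoxime reductase, fell from 16.6, 43.2, 15.5 and 7.76 to 10.3, 12.4, 5.36 and 5.40 CPM, with overlap, and Ppic, a cyclophilin, from 8.92, 8.15, 6.48 and 3.69 to 3.02, 3.22, 1.90 and 2.04 CPM. The control mice had Ppic at 12.9 ± 2.34 and 12.9 ± 1.65 CPM (SD, n = 4 each), above all DN mice. Of the genes in the list of PT injury, which holds Havcr1 and Lcn2, none of 16 tested was called in PT by edgeR. At an unadjusted p under 0.05, 1 was lower, as were 2.13% of all genes tested there, and the median log2 change was -0.06.

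Smooth muscle and renin cells, which line the arterioles and release renin, had 1 call of 8952 genes without pairing (0.0112%). Actg2 (chr6:83512905-83536265, minus strand), the gamma smooth muscle actin gene, was at 11.6, 26.0, 35.8 and 66.1 CPM at 6 weeks and 5.32, 0, 0 and 7.97 CPM at 12 weeks in DN. No 12-week mouse reached the lowest 6-week mouse, and 2 of the 12-week libraries held no UMI of it. The log2 change was -3.68 ± 0.60 (edgeR adjusted p = 0.0114, and 0.000682 in the paired fit). Control mice were low throughout, at 9.93, 8.10, 4.27 and 2.78 CPM and then 0, 3, 9.78 and 2.52 CPM. The call held in 14 of 16 fits that each left out 1 library and was lost without DN female 12 weeks replicate 2 and without DN female 6 weeks replicate 2 (highest adjusted p = 0.926). Of the 25 genes in the list of MRTF-SRF targets, the actin-regulated contractile programme that includes Actg2, 1 fell and none rose, with a median log2 change of 0.05.

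In the paired fit Npy, the vasoconstrictor neuropeptide Y, rose in these cells from 23.3, 13.6, 21 and 12.2 to 47.9, 39.6, 29.5 and 45.8 CPM, with no overlap, and the transcription factor Hoxd11 rose from 15.5, 23.1, 36.7 and 33.0 to 31.9, 62.4, 51.6 and 45.8 CPM, with overlap. Arhgdib, an inhibitor of small GTPases, rose by 0.99 ± 0.23, Islr, a matrix glycoprotein made by mesenchymal cells, by 0.66 ± 0.16, and Anxa2, an annexin, by 0.69 ± 0.15. Among metabolic genes Pgk1, of glycolysis, rose by 0.59 ± 0.14, Sdhb, of respiratory complex II, by 0.61 ± 0.14, and Sqle, which makes squalene epoxide on the way to cholesterol, by 1.24 ± 0.29. Their adjusted p in the paired edgeR fit lay between 0.0341 and 0.0493.

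Genes that fell in smooth muscle and renin cells in the paired fit included Prkg2, a cyclic GMP-dependent kinase, from 151, 189, 141 and 123 to 74.5, 92.9, 81.2 and 113 CPM, and Npnt, nephronectin, an integrin ligand of the basement membrane, from 27.1, 119.6, 78.6 and 98.4 to 47.9, 32.0, 33.2 and 49.8 CPM. Prkg2 did not overlap between the ages, whereas Npnt overlapped through the 6-week female replicate 1. Atf3, an immediate early factor that also answers to tissue dissociation, fell by 1.64 ± 0.28 and Id2, a BMP target, fell by 0.58 ± 0.13. Gpx3, a glutathione peroxidase made chiefly by PT, was at 787, 155, 854 and 147 CPM and then 602, 132, 107 and 113 CPM, so its change of -1.10 ± 0.27 stands beside PT markers that summed to 74.6 to 293 CPM at 6 weeks and 38.7 to 192 CPM at 12 weeks in this class, and their part was not tested.

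In gEC, 25 of 9897 genes (0.253%) were called in the paired fit. Without pairing DESeq2 called 7 and edgeR none, with an unadjusted p under 0.05 for 584 genes in edgeR. Ch25h (chr19:34473778-34475164, minus strand), cholesterol 25-hydroxylase, an inflammation-induced enzyme, was at 9.29, 10.5, 12.7 and 15.1 CPM at 6 weeks and 20.8, 107, 32.9 and 27.2 CPM at 12 weeks. All 12-week mice lay above all 6-week mice, and the female replicate 2 library was far above the other three. It rose by 1.88 ± 0.27 (edgeR adjusted p = 0.00225 in the paired fit, 0.0845 without pairing), and the control change was -0.22 ± 0.42. The paired call held in 4 of 8 fits that each left out 1 DN library and was lost without DN female 12 weeks replicate 2, DN female 6 weeks replicate 2, DN male 12 weeks replicate 1 and DN male 6 weeks replicate 1 (highest adjusted p = 0.295, without DN male 12 weeks replicate 1).

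Sele, which encodes the leukocyte adhesion molecule E-selectin, was at 2.14, 11.9, 16.9 and 32.0 CPM and then 9.78, 95.4, 62.0 and 38.1 CPM, with overlap, and rose by 2.19 ± 0.34 in the paired fit. Bmp6, a BMP ligand of endothelium, rose from 75.7, 188, 196 and 294 to 156, 401, 286 and 357 CPM and Bgn, the proteoglycan biglycan, from 65.0, 122, 117 and 252 to 149, 381, 213 and 387 CPM. Both overlapped between the ages and rose in each pair, with log2 changes of 0.73 ± 0.10 and 1.08 ± 0.15 (adjusted p = 0.00225 for each by edgeR). The change of Bmp6 in control mice was -0.01 ± 0.12 and that of Bgn was 0.86 ± 0.22. The call of Bmp6 held in 7 of 8 fits that each left out 1 DN library and was lost without DN male 6 weeks replicate 1 (adjusted p = 0.126). The call of Bgn held in 6 of 8 fits that each left out 1 DN library and was lost without DN female 6 weeks replicate 2 and without DN male 6 weeks replicate 1 (highest adjusted p = 0.0738).

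Alpl, alkaline phosphatase, rose in gEC by 0.69 ± 0.13, Ctsb, the lysosomal protease cathepsin B, by 0.59 ± 0.11, and Junb, a subunit of the AP-1 factor, by 0.97 ± 0.17. Junb belongs to the genes that tissue dissociation induces, and the 21 genes of that list tested in gEC summed to 6003 to 8225 CPM at 6 weeks and 6235 to 10223 CPM at 12 weeks. Lpl, lipoprotein lipase, fell from 87.9, 218, 35.6 and 37.4 to 11, 36.5, 31.7 and 32.7 CPM, and Stmn1, a microtubule regulator of dividing cells, from 105, 111, 130.1 and 53.4 to 14.7, 42.1, 83.6 and 40.9 CPM. Oas1a, an interferon-induced gene, fell by 2.17 ± 0.40. In gEC, DN male 6 weeks replicate 1 stood above the other DN libraries in the list of interferon-induced genes, as given below. The part of that library in the fall of Oas1a was not tested. Of the 25 gEC calls, 14 differed from the control change at an unadjusted p under 0.05, as did 275 of all 9897 genes tested, but these 25 were selected by their change in DN. Markers of arterial endothelium in the gEC sums ranged from 1216 to 1653 CPM at 6 weeks and 1212 to 1678 CPM at 12 weeks.

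In mesangial cells, 11 of 9768 genes (0.113%) were called in the paired fit. Without pairing neither edgeR nor DESeq2 called any, and 442 and 250 genes had an unadjusted p under 0.05. Tmem178, a membrane protein of the endoplasmic reticulum, was at 29.0, 10.8, 15.6 and 18.3 CPM at 6 weeks and 80.0, 32.5, 59.5 and 36.4 CPM at 12 weeks, with no overlap, and rose by 1.45 ± 0.26 (edgeR adjusted p = 0.0271). Control mice had 6.18 ± 3.72 and 9.05 ± 1.99 CPM (SD, n = 4 each). Cd302, a C-type lectin, rose from 139, 115, 117 and 148 to 308, 198, 180.0 and 206 CPM. Of all genes tested in mesangial cells, 1.61% did not overlap between the ages in one or the other direction.

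Matrix genes were among those that fell in mesangial cells. Sparc, which encodes osteonectin, was at 2319, 3031, 4369.7 and 2690.2 CPM at 6 weeks and 1886, 1942, 1933 and 1842 CPM at 12 weeks, with no overlap and a log2 change of -0.69 ± 0.12. Agrn, which encodes the heparan sulphate proteoglycan agrin, fell from 51.6, 70.3, 39.9 and 42.9 to 22.5, 33.8, 25 and 32.4 CPM, again with no overlap, while control mice changed by 0.14 ± 0.20. Of 29 matrix genes tested in mesangial cells these 2 fell, none rose, and the median log2 change was -0.17 in DN and -0.28 in control, against -0.0011 over all genes in DN. Of 23 MRTF-SRF targets none was called, 2 were lower at an unadjusted p under 0.05, as were 2.24% of all genes tested there, and the median was -0.20. Of 14 YAP targets, another mechanosensitive set, none was called and the median was 0.03. At an unadjusted p under 0.05, 1 was higher and 1 lower, against 2.28 and 2.24% of all genes. The endothelial gene Ly6c1 fell in the mesangial sums from 25.8, 37.9, 22.9 and 5.36 to 12.5, 2.50, 3.72 and 0 CPM. The 7 gEC markers tested there summed to 780 to 1159 CPM at 6 weeks and 921 to 1131 CPM at 12 weeks. Of the 7, 2 (Ehd3 and Emcn) had a higher mean at 12 weeks. Kdr, another of them, was at 6.45, 25.2, 18.5 and 5.81 CPM and then 37.5, 2.92, 5.95 and 2.35 CPM. Their part in the fall of Ly6c1 was not tested.

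Podocytes were tested on 7 DN libraries, because DN female 6 weeks replicate 1 held only 8 of them and was left out. The paired fit called 4 of 8358 genes (0.0479%). Without pairing neither edgeR nor DESeq2 called any, and 323 and 178 genes had an unadjusted p under 0.05. Fgfbp1, a carrier that releases fibroblast growth factors, was at 83.2, 195 and 231 CPM at 6 weeks in the 3 remaining mice and 197, 737, 425 and 215 CPM at 12 weeks, with overlap and higher in 2 of 3 pairs. It rose by 1.68 ± 0.23 (edgeR adjusted p = 2.36e-05), and in control mice by 0.81 ± 0.18. That call held in 6 of 7 fits that each left out 1 DN library and was lost without DN female 12 weeks replicate 2 (adjusted p = 0.793). Egr1, an immediate early factor, fell from 36.1, 161 and 78.5 to 0, 0, 60.4 and 2.80 CPM and Igfbp6 from 42.4, 28.9 and 11.2 to 0, 0, 7.54 and 0 CPM. Of the 12-week libraries, 2 held no UMI of Egr1 and 3 held none of Igfbp6. Without doublet removal the log2 change of Igfbp6 was 0.40 and was not called. Of 13 genes of podocyte function, Vegfa and Actn4 among them, none was called or had an unadjusted p under 0.05 and the median log2 change was 0.03. The other DN libraries held 31 to 44 podocytes, apart from the 10 of DN female 12 weeks replicate 1. Median UMIs per podocyte were 3523 and 2694 in the 12-week DN females and 7830 to 13260 in the other DN libraries tested. The part of this depth in the libraries without UMIs of Egr1 and Igfbp6 was not tested.

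In arterial endothelial cells a receptor gene fell in DN and in control mice. Ednrb, the endothelin B receptor, was at 100.4, 157, 59.5 and 53 CPM at 6 weeks and 17.5, 18.4, 46.6 and 16.5 CPM at 12 weeks in DN, with no overlap, and at 109.7, 169, 68.9 and 42.7 and then 26.1, 18.6, 49.9 and 23.6 CPM in control mice. It fell by 1.68 ± 0.23 in DN (edgeR adjusted p = 0.00366 in the paired fit) and fell by 1.49 ± 0.22 in control. The DN call held in 7 of 8 fits that each left out 1 DN library and was lost without DN female 12 weeks replicate 1 (adjusted p = 0.052). The 4 calls of that class were 0.0428% of its 9356 genes, and without pairing DESeq2 called 2 and edgeR none, with an unadjusted p under 0.05 for 378 genes in edgeR.

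In peritubular and venous endothelial cells, where DN male 12 weeks replicate 2 had 6 cells and was left out, the 6 paired calls (0.125%) included the mitochondrially encoded mt-Co3 and mt-Atp6, with log2 changes of -0.72 ± 0.12 and -0.63 ± 0.12. In DCT, Glul, glutamine synthetase, fell from 75.2, 89.2, 43.9 and 33.3 to 36.5, 45.0, 28.3 and 29.8 CPM, with overlap, and the control change of -0.90 ± 0.12 stood beside -0.73 ± 0.12 in DN. In PC, Pcolce, an enhancer of collagen processing, rose from 22.4, 18.2, 38.2 and 39.6 to 44.0, 51.9, 50 and 42.3 CPM, with no overlap. In IC-A, Peg3, an imprinted gene expressed in growing tissue, fell from 9.19, 23.9, 20.9 and 10.5 to 8.80, 5.03, 7.97 and 3.46 CPM, and fell in control by 1.26 ± 0.23. In mitotic cells Slc12a1, the cotransporter of the loop of Henle, fell from 393, 356, 47.6 and 119 to 92.5, 11.4, 5.07 and 1.54 CPM, with overlap. The control change was -3.27 ± 0.63 (adjusted p = 0.279 in the paired edgeR fit). Because Slc12a1 is not a gene of dividing cells, a different segment among them and a lower level per cell cannot be told apart.

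**Figure D3:**
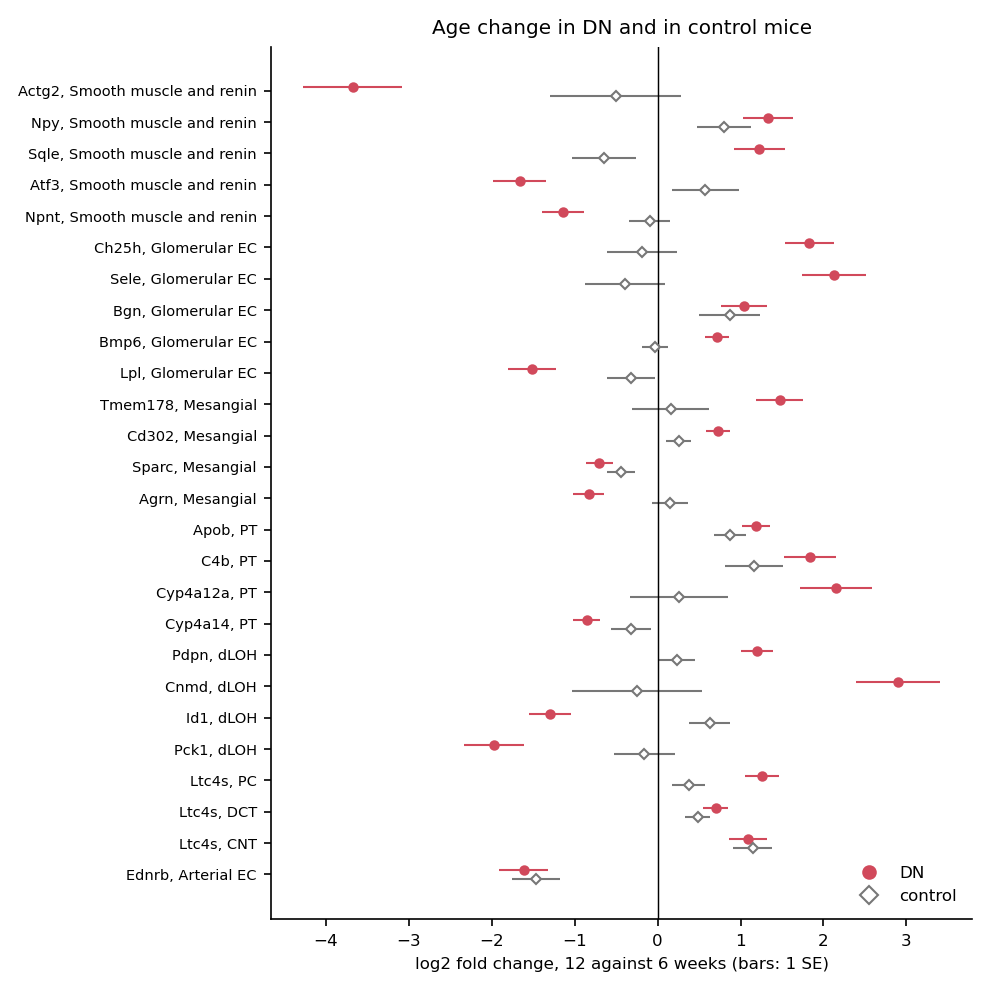
Age change (log2, 12 against 6 weeks, fit without pairing) of gene and class pairs called in DN in either fit, filled circles for DN and open diamonds for control, with bars of 1 SE. For Ednrb both lie below 0, whereas for Pdpn, Actg2 and Ch25h the DN changes of 1.20, -3.68 and 1.83 stand beside control changes of 0.24, -0.51 and -0.19.

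Few genes of sterol and fatty acid synthesis, the pathways that make cholesterol and lipid chains, passed the test between the ages. The list held 24 genes and gave 318 gene and class pairs, of which 46 were higher and 7 lower at an unadjusted p under 0.05 (14.5 and 2.2%), while over all genes 2.04% were higher and 2.08% lower. In control mice 30 of these pairs were higher and 2 lower (9.43 and 0.629%), against 1.83 and 1.86% over all genes. None was called without pairing, and 4 rose and none fell in the paired fit. The median log2 change of the list was above 0 in 14 of 16 classes in DN and in 10 of 16 in control. Fasn, the fatty acid synthase, was higher in none and lower in 1 of 12 classes at an unadjusted p under 0.05 without pairing. Acaca, which makes its malonyl-CoA, was higher in none and lower in 2 of 14. The elongase Elovl6 and the desaturase Scd2 were neither higher nor lower at that p in any class. Many of these genes hold a feature that the choice of the list did not use, a CCAAT box (CCAAT on either strand) in the 250 bases before to 50 bases after the gene start. Of the 16 list genes with a promoter in RefSeq (GRCm38.p6), 12 (75.0%) held it, against 37.9% of 27025 promoters. The sterol response element core TCACNCCAC was in 1 of the 16 (6.25%) against 1.22%, and the E-box CACGTG in 2 (12.5%) against 7.24%, searched on both strands. Of the list genes named above as higher in no class, Fasn held the box at 3 places, and Acaca and Elovl6 did not hold it. The promoters of 3 of the genes that were higher at an unadjusted p under 0.05 in 6 or more classes are shown 5' to 3', with the box, read on either strand, in capitals.
Idi1 (chr13:8885356-8885655, plus strand): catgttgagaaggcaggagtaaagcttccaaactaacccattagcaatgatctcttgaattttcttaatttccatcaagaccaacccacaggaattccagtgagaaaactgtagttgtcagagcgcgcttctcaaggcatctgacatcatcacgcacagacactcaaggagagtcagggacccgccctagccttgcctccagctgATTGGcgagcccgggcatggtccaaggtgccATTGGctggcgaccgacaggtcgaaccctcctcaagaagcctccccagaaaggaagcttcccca
Cyp51 (chr5:4104648-4104947, minus strand): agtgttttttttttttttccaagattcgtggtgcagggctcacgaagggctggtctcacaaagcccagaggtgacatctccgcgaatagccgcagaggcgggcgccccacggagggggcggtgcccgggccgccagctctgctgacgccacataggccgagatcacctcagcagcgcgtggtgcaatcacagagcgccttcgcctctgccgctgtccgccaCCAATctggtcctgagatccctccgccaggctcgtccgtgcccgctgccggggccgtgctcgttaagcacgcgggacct
Insig1 (chr5:28071162-28071461, plus strand): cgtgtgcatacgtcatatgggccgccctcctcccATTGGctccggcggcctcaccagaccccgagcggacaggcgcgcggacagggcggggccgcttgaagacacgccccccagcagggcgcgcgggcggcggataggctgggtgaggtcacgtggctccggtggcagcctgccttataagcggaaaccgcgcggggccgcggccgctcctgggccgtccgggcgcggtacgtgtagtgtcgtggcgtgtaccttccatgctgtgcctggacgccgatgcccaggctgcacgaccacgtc

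IC-A, the acid-secreting cells of the collecting duct, carried 2 of the 4 calls. Idi1, the isomerase of isopentenyl diphosphate, was at 5.51, 10.1, 17.1 and 16.6 CPM at 6 weeks and 20.7, 29.5, 36.6 and 26.2 CPM at 12 weeks, and it rose by 1.26 ± 0.21 (edgeR adjusted p = 0.0231 in the paired fit, 0.118 without pairing). Cyp51, lanosterol demethylase, rose from 3.68, 8.74, 14.3 and 11.5 to 15.5, 15.9, 33.3 and 21.2 CPM, by 1.07 ± 0.18 (edgeR adjusted p = 0.0231 in the paired fit). Neither overlapped between the ages. Control IC-A cells changed by 0.73 ± 0.19 and 0.78 ± 0.17 for these genes, and 10 of 23 list genes were higher in DN and 10 of 23 in control at an unadjusted p under 0.05, where 1.8 and 1.55% of all genes were. The call of Idi1 held in 2 of 8 fits that each left out 1 DN library and was lost without DN female 12 weeks replicate 1, DN female 12 weeks replicate 2, DN female 6 weeks replicate 1, DN female 6 weeks replicate 2, DN male 12 weeks replicate 1 and DN male 6 weeks replicate 1 (highest adjusted p = 0.783, without DN female 6 weeks replicate 2). The call of Cyp51 was lost without the same libraries.

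In DCT, Idi1 rose from 14.7, 15.7, 22.7 and 22.9 to 28.7, 31.6, 51.6 and 38.9 CPM (0.96 ± 0.17, edgeR adjusted p = 0.029), with no overlap, and was at 22.0, 25.3, 14.1 and 14.2 and 9.78, 27.8, 13.8 and 18.7 CPM in control mice. Insig1, the sterol sensor that holds back the pathway's transcription factor, was at 9.17, 4.75, 5.00 and 5.35 CPM and then 15.6, 11.1, 16.7 and 13.8 CPM, without a call. Of 23 list genes in DCT, 7 were higher in DN and 1 in control at an unadjusted p under 0.05, against 1.22 and 1.34% of all genes there. The same count in smooth muscle and renin cells was 7 of 19 in DN and none in control, against 2.19 and 1.5% of all genes, with Sqle the called gene, from 15.5, 10.1, 27.9 and 21.5 to 31.9, 42.6, 42.4 and 32.9 CPM. The summed level of the list in that class was 341, 473, 526 and 600.4 CPM at 6 weeks and 538, 946, 655 and 581 CPM at 12 weeks. In DCT it was 624, 690.4, 761 and 652 CPM and then 789, 797, 952 and 794 CPM, with no overlap.

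Across classes, Idi1 was higher at an unadjusted p under 0.05 in 8 of 15 classes, Insig1 in 6 of 16, Cyp51 in 6 of 15, Msmo1 in 6 of 16, Fdps in 5 of 15 and Sqle in 4 of 14. The classes come from the same mice and libraries, so they are not independent. The difference of the age change between DN and control was tested for each gene, and of the 4 calls none passed that test. The difference was 0.83 ± 0.22 for Idi1 in DCT (adjusted p = 0.231 in the edgeR fit of control-DN pairs) and 1.92 ± 0.47 for Sqle in smooth muscle and renin cells (adjusted p = 0.102).

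**Figure D4:**
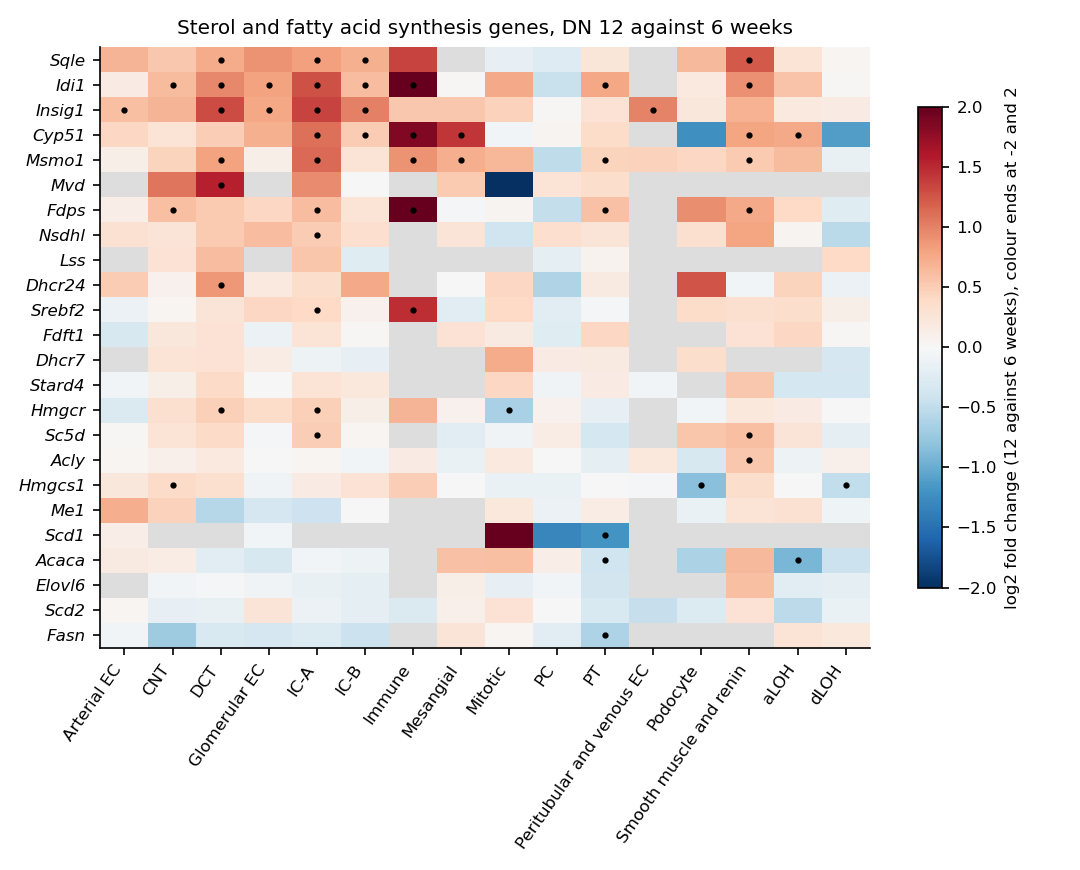
Age change in DN (log2, 12 against 6 weeks) of each gene of sterol and fatty acid synthesis (y axis) in each class (x axis), red above and blue below 0, with colours ending at -2 and 2, a dot at an unadjusted p under 0.05 and grey where the gene was not tested. Of 318 tested pairs, 46 are higher and 7 lower at an unadjusted p under 0.05.

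The endoplasmic reticulum (ER) stress list stood the other way. Of 235 gene and class pairs 29 (12.3%) were lower and 1 higher at an unadjusted p under 0.05, against 2.08 and 2.04% over all genes, and none was called in either fit. In control mice 13 were lower and 3 higher, and the median was above 0 in 3 of 16 classes in both genotypes. Hspa5, the ER chaperone BiP, was lower in 7 classes and Dnajb9, its cochaperone, in 6. In mesangial cells 7 of 14 were lower in DN and 2 of 14 in control, where 2.24 and 2.59% of all genes were, with a median log2 change of -0.39 in DN and -0.20 in control mice. Hspa5 was at 699.8, 588, 706 and 715 CPM at 6 weeks and 440.2, 503, 492 and 545 CPM at 12 weeks there, with no overlap, a log2 change of -0.46 ± 0.14 (edgeR adjusted p = 0.82).

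Genes of oxidative phosphorylation were read by genome. Of 495 pairs for nuclear genes 15 (3.03%) were higher and 1 (0.202%) lower at an unadjusted p under 0.05, against 2.04 and 2.08% over all genes. In control 10 (2.02%) were higher and 2 (0.404%) lower, against 1.83 and 1.86%. The medians were above 0 in 15 of 16 classes in DN and 12 in control. Sdhb in smooth muscle and renin cells was the 1 call of the paired fit. Of 207 pairs for mitochondrially encoded genes none was higher and 29 (14.0%) were lower in DN and 8 (3.86%) in control at an unadjusted p under 0.05, the medians were above 0 in 2 and 4 of 16 classes, and 8 pairs fell in DN in the paired fit. Most of these came from a pair of genes: mt-Nd4l gave 14 and mt-Atp8 gave 5 of the 29, and 4 and 2 of the 8. In both DN fits mt-Nd4l, the predicted gene Gm42418 and Gpx3 had a log2 change below 0 in all 16 classes and the predicted gene Gm8797 one above 0 in all 16. In control mice, without pairing, Gm8797 was above 0 in 16 classes, Gm42418 in 0, mt-Nd4l in 1 and Gpx3 in 3. In PT, Gm8797 was at 510, 26.8, 15.5 and 47.1 CPM at 6 weeks and 1485, 55.3, 30.6 and 55.9 CPM at 12 weeks in DN, and 349, 38.3, 23.1 and 42.3 CPM and then 1083, 38.0, 32.4 and 28.9 CPM in control. The first of each 4 values, from the library of the smaller barcode set, was the highest. Among females the barcode set and the replicate number cannot be told apart. The part of library differences in the mitochondrial result was not tested.

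Other lists were counted in the same way, where over all genes 2.04% of pairs were higher and 2.08% lower in DN and 1.83 and 1.86% in control. Genes of DNA replication and cell cycle were higher in 34 and lower in 5 of 233 pairs (14.6 and 2.15%) at an unadjusted p under 0.05. Matrix genes were higher in 12 and lower in 31 of 312 (3.85 and 9.94%), and imprinted and postnatal growth genes higher in 4 and lower in 21 of 178 (2.25 and 11.8%). Glycolysis genes were higher in 11 and lower in none of 207 (5.31 and 0.0%). Immediate early genes and genes of dissociation stress were higher in 28 and lower in 25 of 339 pairs in DN (8.26 and 7.37%), and higher in 10 and lower in 56 in control (2.95 and 16.5%). The control counts were 16 higher and 4 lower for replication, 6 and 41 for matrix, 5 and 13 for growth and 3 and 2 for glycolysis. Genes of the circadian clock, which set the daily rhythm of each cell, were higher in 8 and lower in 9 of 264 pairs in DN (3.03 and 3.41%), and higher in 78 and lower in 22 in control (29.5 and 8.33%). Their medians were above 0 in 7 classes in DN and 15 in control, and their part in the differences between DN and control given below was not tested. In control mice the medians of the replication list were above 0 in 11 classes, as in DN, those of the matrix list in 3 (2 in DN), those of the growth list in 3 (2 in DN) and those of glycolysis in 10 (14 in DN). Interferon-induced genes were higher in 4 and lower in 25 of 339 pairs in DN (1.18 and 7.37%) and higher in 61 and lower in 1 in control. Their medians were above 0 in 5 classes in DN and 14 in control. One library stood apart: DN male 6 weeks replicate 1 had 4502 CPM of the list in mesangial cells, where the other 7 DN libraries had 1140 to 2091 CPM, and 4113 CPM in gEC, where they had 1460 to 2314 CPM, and its part in these counts was not tested.

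Whether the DN change differed from the control change was tested next. Without pairing the difference was called for 0 of the gene and class pairs by edgeR, where 3341 had an unadjusted p under 0.05, and for 10 by DESeq2, and with the replicate numbers as pairs for 8 (0.00509%). Control and DN libraries of equal sex, age and number also deviated together, with 2 of 60 correlations under 0.1. The correlations were taken class by class in each sex and age, and the classes come from the same mice, so they are not independent. In females the number also coincides with the barcode set. A fit that used these libraries as pairs, chosen after the data had been seen, called 116 of 157799 (0.0735%). Of these 64 were in PC (0.53% of the genes tested there), 13 in CNT (0.113%), 8 in mesangial cells (0.0819%), 7 in IC-B (0.0585%), 6 in podocytes (0.0696%), 6 in IC-A (0.0501%) and 5 in smooth muscle and renin cells (0.0559%). The 8 calls with the replicate numbers as pairs lay in smooth muscle and renin cells (3), dLOH (2), IC-A (2) and podocytes (1). In PC, CNT, mesangial cells and IC-B edgeR called none with that pairing, where 559, 367, 454 and 251 genes had an unadjusted p under 0.05, and DESeq2 called 5 in PC and none in the others. Each edgeR call in those classes therefore rests on the control-DN pairs.

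PC take up water and sodium under vasopressin and aldosterone. Their 4 correlations between control and DN libraries of equal number were 0.406 to 0.588. Idh1 (chr1:65158616-65186500, minus strand), the cytosolic isocitrate dehydrogenase that yields NADPH, was at 83.6, 328, 177 and 422 CPM at 6 weeks and 429.6, 507, 401 and 423 CPM at 12 weeks in DN, and at 57.1, 255, 71.0 and 139 and then 66.8, 87.6, 71.8 and 82.3 CPM in control. At 12 weeks all DN mice were above all control mice, while at 6 weeks replicate 2 was high and replicate 1 low in both genotypes and both sexes. The age changes differed by 1.63 ± 0.13 on the log2 scale (edgeR adjusted p = 3.46e-06 in the fit of control-DN pairs), made up of 0.98 ± 0.32 in DN and -0.66 ± 0.33 in control, neither called. Without pairing the difference had an adjusted p of 1.00.

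Grem1, which encodes gremlin, a secreted antagonist of BMPs, was in PC at 43.5, 332, 47.0 and 510.2 CPM and then 277, 479.9, 363 and 458 CPM in DN, and at 3.43, 145, 1.46 and 26.3 CPM and then 0, 3.84, 4.57 and 10.9 CPM in control. All 12-week DN mice were above all 12-week control mice, whereas in the 6-week mice replicate 2 was above replicate 1 in each sex and genotype. The difference of the age changes was 3.68 ± 0.33 (edgeR adjusted p = 6.26e-06 in the fit of control-DN pairs).

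Pappa, a protease of insulin-like growth factor binding proteins (1.5 ± 0.15), Fam129a (1.59 ± 0.13) and Car15, a carbonic anhydrase (1.91 ± 0.17), were also called in PC. Idh1, Grem1 and Pappa were called in CNT and IC-B as well, and 7 of the 13 CNT calls and 7 of the 7 IC-B calls were among the 64 PC calls. Pappa was also among the leading genes of a PC cluster. PC markers were not read in the CNT and IC-B sums, and the part of PC RNA in those calls was not tested. Car15 was among the leading genes of an IC-B cluster. IC-B markers were not read in the PC sums, and the part of IC-B RNA in the call of Car15 was not tested. Lcn2, a marker of tubular injury, was at 226, 251, 356 and 243 CPM at 6 weeks and 402, 431, 534 and 381 CPM at 12 weeks in DN with no overlap, and at 108, 150.5, 186 and 98 and then 75.3, 115, 175 and 118 CPM in control. The difference was 0.96 ± 0.15 (edgeR adjusted p = 0.00336). All 5 CNT markers were higher on average at 12 weeks in the PC sums of DN mice, at 882 to 1961 CPM against 1402 to 3253 CPM, and the part of this in the PC changes was not tested. The call of Idh1 held in all 8 fits that each left out 1 DN library. The call of Grem1 held in 7 of 8 fits that each left out 1 DN library and was lost without DN female 6 weeks replicate 2 (adjusted p = 0.584). The call of Lcn2 held in 7 of 8 fits that each left out 1 DN library and was lost without DN female 6 weeks replicate 2 (adjusted p = 0.133). The control libraries were not left out in turn in the fit of control-DN pairs.

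**Figure D5:**
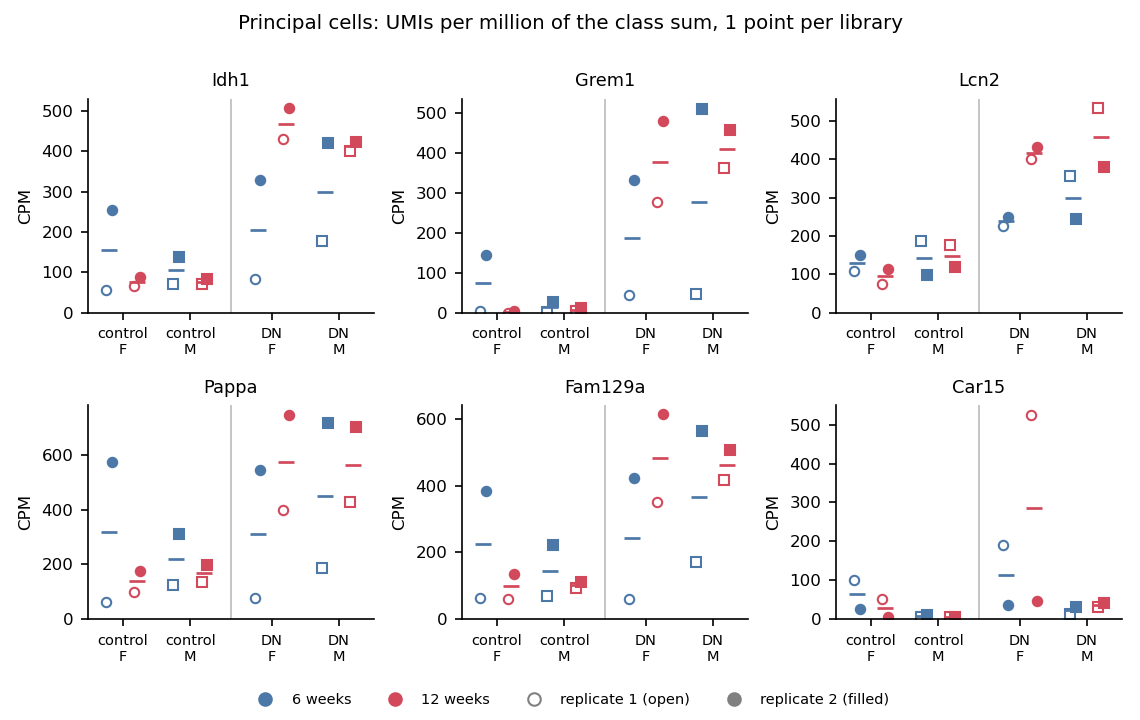
Levels of Idh1, Grem1, Lcn2, Pappa, Fam129a and Car15 in PC cells (CPM, linear axis from 0) in each control and DN library by sex, at 6 and 12 weeks, with bars at the mean of each sex and age. For Idh1 the 12-week DN mice lie at 401 to 507 CPM and the 12-week control mice at 66.8 to 87.6 CPM, while the 6-week mice of the 2 genotypes overlap.

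In IC-A, 6 of 23 interferon-induced genes (Ifi27, Ifit1, Ifit3, Irf7, Isg15 and Oasl2) rose with age in control mice in the paired fit, where 0.125% of all genes were called in either direction. In DN mice edgeR called none of the 23 in that fit, and 7 were lower and 0 higher at an unadjusted p under 0.05. Over all 11988 genes tested there, 354 were lower and 475 higher at that p in DN. Irf7, the factor that amplifies the interferon response, was at 5.51, 1.15, 2.25 and 0.728 CPM and then 1.55, 0.503, 0.613 and 0.203 CPM in DN, and at 2.69, 0.395, 1.22 and 0.642 CPM and then 10.9, 6.10, 9.40 and 4.74 CPM in control. Control mice of the 2 ages did not overlap, and the age changes differed by -4.61 ± 0.65 (edgeR adjusted p = 0.00441). Ifitm3, a restriction factor, differed by -2.58 ± 0.30, with 16.1, 6.05, 5.11 and 2.09 CPM and then 15.5, 13.4, 35.1 and 7.23 CPM in control. The summed level of the 23 genes in IC-A was 136 to 236 CPM and 144 to 181 CPM in DN at the 2 ages, and 126 to 242 CPM and 187 to 430 CPM in control, with overlap between the ages in both. The Irf7 call held in 7 of 8 fits that each left out 1 DN library and was lost without DN female 6 weeks replicate 2 (adjusted p = 0.514).

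Mgp, matrix Gla protein, an inhibitor of calcification in vessel walls, fell in smooth muscle and renin cells of control mice in the paired fit and was not called in DN. It was at 1039, 4768, 2043 and 1982 CPM and then 2299.8, 4415, 5315 and 2345 CPM in DN and 1410.4, 2689, 1977 and 2168 CPM and then 748, 1232, 1095 and 1200.0 CPM in control, and the age changes differed by 1.58 ± 0.20 (edgeR adjusted p = 7.92e-06). Every DN mouse at 12 weeks was above every control mouse of that age. S100a4, a calcium-binding protein of motile mesenchymal cells, rose in DN by 0.62 ± 0.14 and fell in control by 1.29 ± 0.24 in the paired fit, and the difference was 1.88 ± 0.27. Mgp also marks arterial endothelial cells, and 4 other markers of those cells summed in this class to 313 to 357 CPM at 6 weeks and 259 to 411 CPM at 12 weeks in DN. In control they summed to 277 to 348 CPM and then 251 to 334 CPM. The 6 gEC markers detected, of 8 in the list, summed to 221 to 341 CPM over the 8 DN libraries, with none at 0 in all of them. In control they were at 1142, 200.3, 232 and 183 CPM at 6 weeks and 657, 159, 567 and 354 CPM at 12 weeks, higher at 12 weeks in both males. Their part in the differences of Mgp and S100a4, and of the endothelial gene Ly6c1 in the same class, was not tested.

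In dLOH, Id1 and Id2 differed between genotypes in their age change by -1.91 ± 0.28 and -1.55 ± 0.24. Id2 was at 155, 232, 283 and 257 CPM and then 213, 174, 116 and 139 CPM in DN, and at 187, 108, 519 and 356 CPM and then 557, 491, 419 and 528 CPM in control, so the genotypes separated at 12 weeks. Fmod, fibromodulin, was at 3.37, 39.6, 15.8 and 38.9 CPM and then 0, 0, 7.87 and 6.51 CPM in DN while the control mice had 29.6 ± 24.9 and 38.4 ± 10.9 CPM (SD, n = 4 each). In mesangial cells Hrct1 (1.09 ± 0.17), Eml1 (1.22 ± 0.19), Akap12, a scaffold for protein kinase A (1.11 ± 0.19), Foxs1, a forkhead factor of mural cells (2.15 ± 0.39), and Ak1, adenylate kinase (1.25 ± 0.23), had a positive difference. Hrct1, Eml1, Akap12 and Foxs1 fell in control mice in the paired fit and none of the 5 was called in DN. For Akap12 the levels were 242, 507, 253 and 538 CPM and then 158, 480.1, 378 and 441 CPM in DN and 94.6, 339.8, 96.2 and 230.1 CPM and then 15.7, 128, 78.7 and 91.1 CPM in control.

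The age change in males was also tested against that in females within DN. Without pairing 14 gene and class pairs were called (0.0089%), and 160 (0.102%) with the replicate numbers as pairs. Genes called in dLOH included PT products. Miox, the oxygenase of inositol breakdown, was at 1.68, 16.2, 78.7 and 86.9 CPM at 6 weeks and 29.9, 53.4, 22.8 and 17.4 CPM at 12 weeks. The 6-week males were the highest, and the difference of the age changes was -4.38 ± 0.65 (edgeR adjusted p = 0.0136). Fbp1, of gluconeogenesis, and Hao2, a hydroxyacid oxidase, followed with -4.03 ± 0.68 and -5.70 ± 0.97, and the same libraries were high in PT markers of the dLOH sums, at 250 and 226 CPM in the 6-week males against 32.0 to 139 CPM in the other DN libraries.

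In IC-B, Gsta1, a glutathione transferase of PT, was at 3.51, 2.32, 24.8 and 35.7 CPM and then 28.3, 18.3, 14.9 and 17.2 CPM, a difference of -4.10 ± 0.51 (edgeR adjusted p = 0.00628).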

How the data were processed

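Droplet libraries of 16 BTBR mouse kidneys were used, 8 of them from DN mice. The authors aligned the reads to mm10 and deposited raw UMI counts per gene and cell, made with Cell Ranger 3.0.2 per the labels. Cells with 200 to 7000 genes and at most 50% mitochondrial UMIs were kept, which left 94436 of 116439 barcodes. These were integrated with harmony on 30 components of 2000 variable genes. Leiden at a resolution of 1.0 gave 46 clusters, of which 14 stayed unnamed. After naming, 7561 cells carrying markers of several lineages (8.01%) were removed. A further 675 cells over 20% mitochondrial UMIs, in named clusters neither tubular nor mitotic, were also removed, which left 86200 cells. Counts were summed per library and class where at least 10 cells were present. The sums were tested with edgeR 4.0.16 (R 4.3.3; filterByExpr with a minimum count of 10, TMM) with 8 group means and a term for the barcode set, which was read from shared barcodes because the labels give no kit version per library, adjusted by Benjamini-Hochberg within each class at 0.05. CPM were computed from the sums without TMM factors. The summaries used Python 3.11.15, pandas 2.3.3 and numpy 2.4.6.

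Replicate numbers were tested as pairs: deviations of same-numbered libraries at the 2 ages correlated at 0.158 to 0.593 in DN females and 0.173 to 0.563 in DN males (15 correlations each, 1 per class), so the paired fit is given where it changed a call. In females the number coincides with the barcode set, and these cannot be told apart there. The paired fit therefore added only a term for replicate 1 of the males to the barcode-set term. The labels do not say what the numbers share. Control and DN libraries of equal sex, age and number correlated at -0.0954 to 0.75 (60 correlations, 2 under 0.1), and the fit with these pairs was chosen after seeing the data. The classes come from the same libraries, so the correlations of either kind are not independent of one another. In the fit without pairing the p-values cover the spread between mice left after the group means and the barcode-set term. In the paired fits they cover only what is left once the deviations shared within pairs are also taken out. Members and gene lists were chosen with earlier results of these data known. Named genes were those called with the lowest p, up to 8 per class and direction, whose DN ages did not overlap within either sex and whose mean reached 10 CPM at one age. A lack of overlap between the ages in these genes was therefore in part set by the choice. Over all genes tested, 0.698% in PT, 1.61% in mesangial cells and 1.71% in gEC did not overlap. For differences of age changes up to 6 per class were named, without these limits on overlap and level. The fit without pairing was used or, added after seeing the data, the paired fits. In a class without a call in the fit without pairing, the 2 genes with the lowest p there were also named, whether or not they met these limits. Members of the gene lists were named as well, and markers of a class were not named in it. Some genes are not reported here and were left out of the lists, but not of the fits. The fits were tested on simulated counts. DESeq2 1.42.0, other filters, normalization, clustering and the leaving out of each library were tried as alternatives. Gene positions are from GENCODE M21 (GRCm38).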

Additional observations from a re-analysis of the deposited data

Results flagged for a closer look

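In 17 of 141 groups of 4 DN libraries tested by Dixon's criterion 1 library stood apart from the other three, where chance gives about 1 in 20. Among class shares these were IC-A in female 6 weeks replicate 1 (2.95%, lowest), peritubular and venous endothelial cells in the same library (3.27%, highest), immune cells in male 12 weeks replicate 1 (2.53%, highest) and PT in male 12 weeks replicate 2 (35.7%, highest).

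Among gene levels, male 12 weeks replicate 1 was the highest 12-week DN library for Ednrb in arterial endothelial cells (46.6 CPM), for Igfbp6 (7.54 CPM) and Egr1 (60.4 CPM) in podocytes and for Arhgdib in smooth muscle and renin cells (173 CPM). Female 12 weeks replicate 2 was the highest for Ch25h in gEC (107 CPM) and for Islr in smooth muscle and renin cells (190.0 CPM), and the lowest for Pdpn in dLOH (80.1 CPM). Female 12 weeks replicate 1 was the highest for Slc12a1 in mitotic cells (92.5 CPM) and the lowest for Clec2h in PT (54.1 CPM). At 6 weeks male replicate 2 was the highest for Cyp4a12a in PT (17.0 CPM) and Arhgdib in smooth muscle and renin cells (81.2 CPM), male replicate 1 the lowest for Sema3c in CNT (14.7 CPM) and female replicate 1 the highest for Sfrp1 in CNT (54.7 CPM).

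The age change of DN males minus that of DN females, on the log2 scale, passed edgeR's test for 8 named genes. It was -5.70 for Hao2, -4.03 for Fbp1 and -4.38 for Miox in dLOH, -4.68 for Slc12a1 in IC-A, and -4.10 for Gsta1 and 3.55 for Hist1h1e in IC-B. It was -10.6 for Serpine2 in podocytes and 15.5 for the haemoglobin gene Hbb-bs in peritubular and venous endothelial cells, values of this size resting on libraries with no or few UMIs of the gene.

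The age change in DN minus that in control passed the test for 52 named genes or list members in the fit of control-DN pairs. In PC it was 1.63 for Idh1, 1.59 for Fam129a, 3.68 for Grem1, 1.5 for Pappa, 1.91 for Car15, 0.958 for Lcn2, 0.938 for Ltc4s, 1.39 for Angpt1, 1.41 for Ier3, 0.821 for Tubb5 and -1.28 for Gadd45b. In CNT it was 1.69 for Idh1, 3.22 for Grem1, 1.21 for Pappa, 1.82 for Trim7, 4.24 for Pde10a, -2.48 for Isg15, -0.871 for Manf and 9.54 for the haemoglobin gene Hba-a2, and in IC-B 1.27 for Idh1, 4.65 for Grem1, 1.17 for Pappa, 1.34 for Slc4a4 and 2.88 for Pde10a. In IC-A it was -6.77 for Cxcl10, -4.75 for Hbb-bs, -1.51 for Hmx2, -2.58 for Ifitm3, -4.61 for Irf7 and -7.24 for Iigp1. Hmx2 is also a marker of IC-B. The IC-B markers were not read in the IC-A sums, and the part of IC-B RNA in that value was not tested. Mesangial cells had 1.25 for Ak1, 2.15 for Foxs1, 1.09 for Hrct1, 1.11 for Akap12, 1.22 for Eml1 and -2.39 for Ifi47. Smooth muscle and renin cells had 1.88 for S100a4, 1.58 for Mgp and -3.95 for Ly6c1, where the gEC markers that the report gives for this class moved in control males, and dLOH had -5.52 for Fmod, -1.91 for Id1 and -1.55 for Id2. Podocytes had -1.63 for Atp1b1, -2.54 for Dbp, -1.23 for Gpx3, -2.45 for Nr1d1, 1.41 for Prm1 and -9.18 for Pcp4, and Dbp and Nr1d1 are clock genes, a list that was higher in 78 of 264 pairs in control and 8 in DN. The remaining ones were 0.758 for Txnip and -0.675 for Lpl in DCT, -3.57 for Calca in peritubular and venous endothelial cells and -6.79 for Hbb-bs in aLOH. No levels are given here for Hba-a2, Cxcl10, Iigp1, Pcp4 and Hbb-bs, so the UMIs behind these large values are not shown.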

How the results depend on the processing

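The 7 calls between DN ages became 69 with DESeq2, 3 with RLE size factors, 783 without a filter on low counts, 0 without the barcode-set term, 13 with the DN libraries alone, 12 without doublet removal and 164 with the replicate block. Of the 783, 769 were among genes that pass the filter. Leaving out 1 library gave 0 to 75 calls, 0 without DN female 6 weeks replicate 2 and 75 without DN male 6 weeks replicate 2. The 164 paired calls became 72 on the larger barcode set alone and 25 to 462 when 1 DN library was left out, with 25 and 462 for the same libraries, 104 without DN female 12 weeks replicate 1 and 109 without DN male 6 weeks replicate 1. The control age change had 7 calls, and 171 with the replicate block.

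For the age change in DN against control, 0 calls without pairing became 10 with DESeq2, 323 without the filter, 8 with the replicate block, 1 at a Leiden resolution of 0.6, 116 with control-DN pairs and 0 to 29 when 1 library was left out. The 116 became 61 with DESeq2 and 30 to 812 when 1 DN library was left out, 30 without female 6 weeks replicate 2, 812 without male 6 weeks replicate 2, and 213, 211, 260 and 286 without female 6 weeks replicate 1, male 6 weeks replicate 1, male 12 weeks replicate 1 and male 12 weeks replicate 2. For the sex difference, 14 calls became 107 with DESeq2, 677 without the filter, 2 without the barcode-set term, 160 with the replicate block, 0 on the larger barcode set, 8 with sums of at least 30 cells and 1 to 69 when 1 library was left out.

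Igfbp6 in podocytes turned to 0.40 in the paired fit without doublet removal. The call was lost in 502 of the alternatives of 90 genes of the paired fit and kept with its direction in 653, in 195 and 469 for 52 genes of the control-DN pairs, in 55 and 75 for 5 genes without pairing, and in 60 and 136 for 8 genes of the sex difference. No single class could pass the adjusted test of shares, so its alternatives say nothing of stability. The causes were not tested.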
